A study of Mus musculus with 21 samples.

Results

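The peptide receptors for ghrelin, neurotensin, neuromedin U and thyrotropin-releasing hormone (TRH) form a branch of related G protein-coupled receptors, and 6 of the 35266 genes in the tables encode them: *Ghsr*, *Ntsr1*, *Ntsr2*, *Nmur1*, *Nmur2* and *Trhr*. Members were taken by gene symbol. The set was selected on earlier results from these same libraries, namely the changes of *Ghsr*, *Ntsr1* and *Nmur2* with food deprivation (FD) in AGRP neurons and their levels in AGRP and POMC neurons, so those values are given as a description without a test. The question asked was which of these receptors each neuron type carries in the fed state and after FD, beside the genes that supply their ligands and carry their signal.

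All libraries came from male mice on a C57BL/6J background. AGRP neurons were picked by hand as fluorescent cells of the arcuate nucleus from *Npy*-hrGFP mice, in which the *Npy* promoter drives a green protein, and POMC neurons from mice in which the *Pomc* promoter drives the topaz form. Each library held the pooled cells of 1 mouse. There were 5 AGRP libraries from ad libitum fed mice (age 46 to 55 days), 6 from FD mice (47 to 55 days), 5 POMC libraries from fed mice (51 to 56 days) and 5 from FD mice (54 to 56 days), with 24 h of deprivation. Libraries held 44 to 214 sorted cells and 9822298 to 37663979 gene counts (median 19189780). *Agrp* and *Npy* together ranged from 12064 to 68921 TPM in the AGRP libraries and from 5.45 to 226 TPM in the POMC libraries, whereas *Pomc* and *Cartpt* together ranged from 114 to 227 TPM and from 8809 to 37160 TPM, respectively. Summed TPM of 4 markers each stayed at or below 9.79 for astrocytes, 47.8 for oligodendrocytes, 12.5 for microglia and 2.94 for endothelial cells in every library. The 6 markers of other arcuate neurons (*Ghrh*, *Sst*, *Kiss1*, *Tac2*, *Slc6a3* and *Th*) summed to 604 to 2298 TPM in fed and 442 to 2346 TPM in FD AGRP libraries, nearly all of it *Sst*, and to 5.76 to 214 TPM in fed and 0.892 to 65.6 TPM in FD POMC libraries. Spike-in RNA was added at 1 µl, at 10 µl or at a volume set by the number of cells. AGRP fed replicate 5 and AGRP FD replicate 3 received a different spike-in mix from the other libraries. All 3 volumes occur in both AGRP groups. There was 1 fed and 1 FD library at 1 µl, 2 and 2 at 10 µl, and 2 and 3 in the cell-number set. AGRP FD replicate 2, whose 50 cells and 1 µl fit either of 2 sets, was placed in the cell-number set. In POMC neurons the 10 µl libraries were all FD and the cell-number libraries all fed, so the set and the condition cannot be told apart outside the 1 µl libraries, of which there were 3 FD and 3 fed.

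Ghrelin is a stomach hormone that rises in fasting and drives feeding through its receptor, encoded by *Ghsr*, on arcuate AGRP neurons, while POMC neurons oppose feeding. Neurotensin and neuromedins U and S reduce food intake when given into the brain, and TRH controls the thyroid axis and also acts as a transmitter in the hypothalamus. Most of these receptors couple to Gq, which activates phospholipase C, releases calcium through IP3 receptors and engages protein kinase C. Arrestins, receptor kinases and RGS proteins limit that signal.

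Promoter sequences are shown for the 3 receptors that were higher in FD than in fed AGRP neurons, as RefSeq gives them on build GRCm38.p6, the assembly also called mm10, from 250 bases before to 50 bases after the annotated start. They lie at chr3:27371101-27371400 on the plus strand for *Ghsr*, chr2:180499726-180500025 on the plus strand for *Ntsr1* and chr11:56040938-56041237 on the minus strand for *Nmur2*. Each is written 5′ to 3′ in lower case, and capitals mark a match to any of 6 motifs on either strand.
Ghsr: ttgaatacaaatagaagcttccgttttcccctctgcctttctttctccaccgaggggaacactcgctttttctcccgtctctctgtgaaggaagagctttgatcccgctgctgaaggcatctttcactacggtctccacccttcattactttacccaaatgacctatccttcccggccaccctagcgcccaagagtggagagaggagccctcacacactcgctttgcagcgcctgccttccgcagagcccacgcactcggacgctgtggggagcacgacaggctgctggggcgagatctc
Ntsr1: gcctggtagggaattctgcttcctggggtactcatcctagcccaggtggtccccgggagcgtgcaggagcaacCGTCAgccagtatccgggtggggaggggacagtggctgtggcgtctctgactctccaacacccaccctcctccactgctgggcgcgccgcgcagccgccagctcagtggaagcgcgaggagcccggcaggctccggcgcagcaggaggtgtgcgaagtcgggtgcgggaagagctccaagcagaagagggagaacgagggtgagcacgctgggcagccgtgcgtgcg
Nmur2: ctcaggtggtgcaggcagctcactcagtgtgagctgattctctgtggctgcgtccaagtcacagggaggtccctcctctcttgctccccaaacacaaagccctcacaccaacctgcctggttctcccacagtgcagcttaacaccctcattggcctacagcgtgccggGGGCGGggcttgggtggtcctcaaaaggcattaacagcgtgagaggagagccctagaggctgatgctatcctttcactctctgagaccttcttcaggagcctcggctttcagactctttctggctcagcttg
The motifs were the CRE core TGACG, the E-box CACGTG, the FOXO site GTAAACA, the STAT site TTCNNNGAA, the TATA box TATAAA and the GC box GGGCGG. They occur in 20.8%, 7.15%, 3.65%, 8.30%, 13.6% and 35.7%, respectively, of the 32851 promoter windows of that length, and none of them overlapped another in these windows. *Ntsr1* held 1 CRE core, in reverse orientation, that begins 177 bases before the start, and *Nmur2* held 1 GC box that begins 82 bases before it. None of the 6 motifs was found in the *Ghsr* window, and no motif was found in all 3. GC content was 56.3% for *Ghsr*, 57.3% for *Nmur2* and 68.0% for *Ntsr1*, beside a median of 52.7% over all windows. *Trhr* had no entry in that table.

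*Ghsr*, the ghrelin receptor (ENSMUSG00000051136, chromosome 3, 27371351 to 27378010), was by far the most abundant member and was nearly restricted to AGRP neurons. In TPM, a transcript level adjusted for gene length and scaled to the same total in every library, the fed AGRP libraries read 105, 105, 117, 106 and 213 TPM, with a mean of 129 ± 47.0 (SD, n = 5). The 6 FD AGRP libraries ran from 315 to 457 TPM with a median of 335, and their mean was 357 ± 53.1 (SD, n = 6). Every FD AGRP library lay above every fed one. By mean TPM *Ghsr* ranked 1632nd of all genes in fed and 405th in FD AGRP neurons. POMC neurons held little of this transcript, at 0.268, 1.87, 3.22, 3.44 and 0.702 TPM in fed mice and at 0.198, 0.329, 0.223, 1.13 and 1.42 TPM in FD mice. Those values rest on 8 to 109 counts in the fed and 5 to 26 counts in the FD libraries, all above the floor of 3 counts, which covers counting error only.

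**Figure D1:**
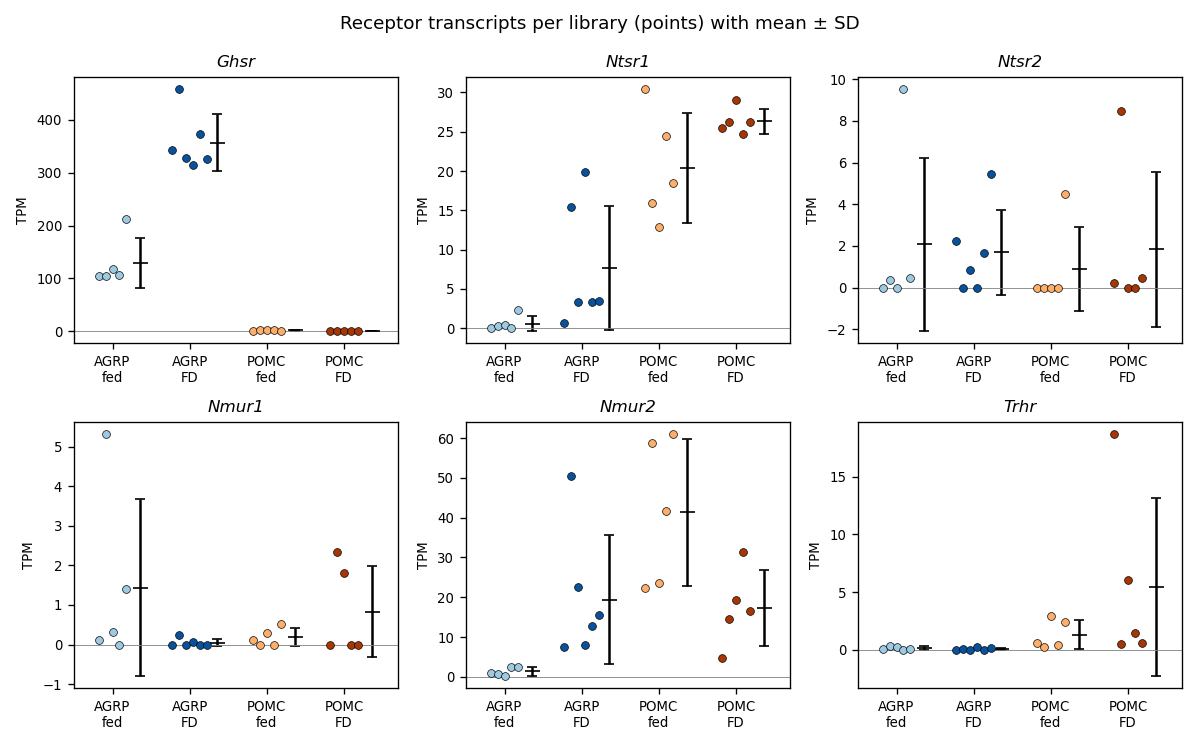
TPM (vertical axes, linear, different for each receptor) of the 6 receptors in every library (points) of the 4 groups, with the group mean and SD beside them. *Ghsr* sits at 315 TPM or more in every FD AGRP library and at 3.44 TPM or less in every POMC library, whereas *Ntsr1* and *Nmur2* have their highest group means in POMC neurons.

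Fold changes were taken from counts in a single edgeR quasi-likelihood fit with all 4 groups and 16513 genes, in which 5 of the 6 members passed the filter of 1 CPM (counts scaled to the library total) in at least 3 libraries. Genes are called when q, the Benjamini-Hochberg adjusted p, is under 0.05, the absolute log2 fold change is over 1 and a group mean exceeds 20 CPM. That group can be any of the 4, also one outside the comparison. *Ghsr* had a log2 fold change of 1.72 ± 0.37 (SE) between FD and fed AGRP neurons, a 3.30-fold difference. Within the spike-in sets the FD level, as mean normalized CPM, was 4.38 times the fed level at 1 µl, 3.49 times at 10 µl and 2.77 times in the cell-number set. FD values exceeded fed values in each set, but the 1 µl set held only 1 FD and 1 fed library, which cannot overlap. AGRP FD replicate 2, the library with the most *Ghsr*, also held the most *Th* and *Slc6a3* of the AGRP libraries, markers of dopamine neurons, at 29.8 and 7.48 TPM. Their part in the result was not tested, and the *Ghsr* log2 fold change was 1.61 without that library. Between AGRP and POMC neurons the log2 fold change was 5.93 ± 0.46 in fed and 9.43 ± 0.55 in FD mice.

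In POMC neurons the *Ghsr* change ran the other way without passing the test. The change was not itself a ground of selection, but the POMC levels it compares were, so its q is not independent of the selection. The same holds for the POMC tests of *Ntsr1* and *Nmur2*. Its log2 fold change was −1.78 ± 0.49 (SE) for FD against fed, with a 95% interval from −2.77 to −0.79 and edgeR q = 0.0890 (n = 5 and 5). With all genes of at least 1 count kept, q was 0.0304, and it was 0.0276 without POMC fed replicate 1 and 0.0374 without POMC FD replicate 5. Under limma-voom it was 0.611. Fed and FD values overlapped over all 10 libraries, but not within the 1 µl set, where 3 FD libraries held 0.198 to 0.329 TPM and 3 fed ones 0.702 to 3.44 TPM. The share of all genes without overlap in that set was not counted, so nothing is read from this. Transcripts that define AGRP neurons were also present in these POMC libraries, with *Agrp* at 5.27 to 38.9 TPM in fed and 16.8 to 69.3 TPM in FD mice. By mean *Agrp* was lower in fed than in FD POMC libraries, with overlap (edgeR q = 0.102). The part of such transcripts in the *Ghsr* result was not tested. In libraries of pooled cells, fewer cells with a transcript and less of it per cell cannot be told apart.

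*Ntsr1* encodes the high-affinity neurotensin receptor (ENSMUSG00000027568, chromosome 2, 180499976 to 180544980). It was highest in POMC neurons and was scarce in fed AGRP neurons. Fed POMC libraries held 30.4, 15.9, 12.9, 24.5 and 18.4 TPM, and FD POMC libraries 25.5, 26.2, 29.0, 24.7 and 26.2 TPM. The FD values were closer together (26.3 ± 1.62 TPM, SD, n = 5) than the fed values (20.4 ± 7.02 TPM, n = 5) and lay inside their range. Within the 1 µl set the 3 FD libraries (25.5 to 29.0 TPM) lay above the 3 fed ones (12.9 to 24.5 TPM). In fed AGRP neurons 2 of 5 libraries had no count, and the others held 0.230, 0.388 and 2.33 TPM. In FD AGRP neurons *Ntsr1* was found in all 6 libraries, from 0.692 to 19.9 TPM with a median of 3.39. This spread was uneven, since FD replicates 2 and 4 held 15.4 and 19.9 TPM and the other 4 held 3.47 TPM or less. The lowest FD library lay below the highest fed one, so the groups overlapped.

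The log2 fold change of *Ntsr1* between FD and fed AGRP neurons was 4.06 ± 0.86 (SE), and it was 6.02 without AGRP fed replicate 5, the library with the most sorted cells, and 3.43 without AGRP FD replicate 4. FD values exceeded fed values in the 1 µl set (1 FD and 1 fed library) and the 10 µl set (2 and 2). They overlapped in the cell-number set (3 and 2). The POMC neuron markers *Pomc* and *Cartpt* ranged together from 114 to 223 TPM in fed and from 138 to 227 TPM in FD AGRP neurons, and their part in the *Ntsr1* values was not tested. In POMC neurons the FD against fed test gave a log2 fold change of 0.22 ± 0.75 (95% interval −1.31 to 1.75, edgeR q = 0.954). Fed AGRP neurons were 5.31 ± 0.92 below fed POMC neurons on the log2 scale, with no overlap, and 7.28 below without AGRP fed replicate 5. FD AGRP neurons were 1.47 ± 0.72 below FD POMC neurons, and 2.11 below without AGRP FD replicate 4. In TPM every FD AGRP library was below every FD POMC library, whereas in normalized CPM the highest FD AGRP library, at 30.5, lay within the POMC range of 28.6 to 34.0.

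*Ntsr2*, the low-affinity neurotensin receptor (ENSMUSG00000020591, chromosome 12, 16653470 to 16660236), known mainly from astrocytes, was sporadic. It exceeded 3 counts in only 2 of 5 fed AGRP, 4 of 6 FD AGRP, 1 of 5 fed POMC and 1 of 5 FD POMC libraries. The highest library of each group held 9.51 TPM (AGRP fed replicate 4), 5.45 TPM (AGRP FD replicate 6), 4.47 TPM (POMC fed replicate 5) and 8.48 TPM (POMC FD replicate 2). Medians were 0.349, 1.24, 0 and 0.227 TPM, respectively. The 4 astrocyte markers *Gfap*, *Aqp4*, *Aldh1l1* and *Gja1* summed to 6.07, 4.95, 2.98 and 2.49 TPM in those 4 libraries, within group ranges of 0.326 to 6.07, 0.328 to 9.79, 0.258 to 2.98 and 0.218 to 3.58 TPM. Among these markers *Aldh1l1* was higher in FD AGRP libraries without overlap (edgeR q = 0.0284), at 0.217 to 5.15 TPM on 5 to 111 counts beside at most 0.045 TPM and 1 count in the fed ones, and it stayed under 20 CPM. The part of the astrocyte markers in the *Ntsr2* values was not tested. The POMC log2 fold change of 1.03 ± 1.91 (95% interval −2.87 to 4.93, edgeR q = 0.899) turned to −2.25 without POMC FD replicate 2, so no direction can be read at this depth.

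*Nmur2*, the neuromedin U receptor best known from the brain (ENSMUSG00000037393, chromosome 11, 56024987 to 56041010), shared with *Ntsr1* a low level in fed AGRP neurons and a higher one after FD. Fed AGRP libraries held 1.02, 0.599, 0.132, 2.56 and 2.54 TPM, on 2 to 50 counts. FD AGRP libraries ran from 7.57 to 50.4 TPM with a median of 14.1, on 129 to 1056 counts. All 6 FD libraries exceeded all 5 fed libraries. The log2 fold change was 4.10 ± 0.63 (SE), a 17.1-fold difference, and it was 3.48 without AGRP FD replicate 2, the highest library, which also held the most *Th* and *Slc6a3*. By spike-in set the FD level was 15.3 times the fed level at 1 µl, 36.5 times at 10 µl and 13.0 times in the cell-number set. The value at 1 µl compares 1 FD with 1 fed library.

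In POMC neurons *Nmur2* was lower by mean after FD, but the difference did not pass the test. Fed POMC libraries held 22.2, 58.7, 23.7, 41.6 and 61.0 TPM (mean 41.4 ± 18.5, SD, n = 5) and FD POMC libraries 4.63, 14.5, 19.4, 31.4 and 16.6 TPM (mean 17.3 ± 9.63, n = 5). The groups overlapped through POMC FD replicate 4. The log2 fold change was −1.38 ± 0.56 (95% interval −2.54 to −0.23, edgeR q = 0.291). Within the 1 µl set the 3 FD libraries (4.63 to 19.4 TPM) lay below the 3 fed ones (23.7 to 61.0 TPM), which was not set against the share of all genes. In that set *Ntsr1* was free of overlap in the other direction. By mean TPM the order was fed POMC, FD AGRP, FD POMC and fed AGRP, in which only the last group stood clear of its neighbour. Accordingly, the AGRP to POMC difference was −5.09 ± 0.67 on the log2 scale in fed mice, without overlap, and 0.39 ± 0.53 in FD mice, with overlap. This last value fell to −0.22 without AGRP FD replicate 2. In GENCODE M21 the antisense gene *Gm12239* crosses the *Nmur2* locus but shares 0 exon bases with it. The other 5 receptor loci overlap no other annotated gene, which matters because reads were counted without regard to strand.

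*Nmur1*, the neuromedin U receptor best known from peripheral tissues (ENSMUSG00000026237, chromosome 1, 86386242 to 86388162), did not pass the count filter and was not tested. It exceeded 3 counts in 2 of 5 fed AGRP, 0 of 6 FD AGRP, 1 of 5 fed POMC and 2 of 5 FD POMC libraries. Its highest value was 5.31 TPM, in AGRP fed replicate 2. All but 5 of the 21 libraries were at or under the floor, so no difference between groups was detectable at this depth.

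*Trhr*, the TRH receptor (ENSMUSG00000038760, chromosome 15, 44196135 to 44235912), was above the floor in every POMC library and near absent from AGRP neurons. Fed POMC libraries held 0.559, 0.211, 2.90, 0.393 and 2.39 TPM, and FD POMC libraries 18.7, 0.529, 6.01, 1.42 and 0.548 TPM. A single FD library thus held most of the FD signal. AGRP libraries did not exceed 0.362 TPM in fed or 0.215 TPM in FD mice, on at most 11 counts. The POMC test of FD against fed gave a log2 fold change of 2.04 ± 1.23 (95% interval −0.47 to 4.56, edgeR q = 0.534), or 0.68 without POMC FD replicate 1. The log2 difference between AGRP and POMC neurons was −3.11 ± 1.31 in fed mice, with overlap, and −5.86 ± 1.37 in FD mice, without overlap. Leaving out 1 library moved the fed value to between −3.75 and −2.60 and the FD value to between −6.79 (without AGRP FD replicate 4) and −4.51 (without POMC FD replicate 1).

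**Figure D2:**
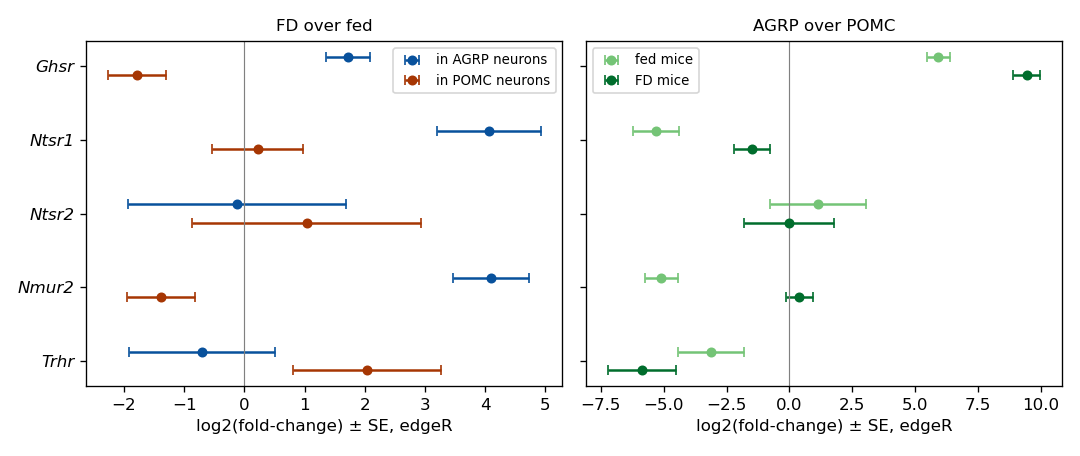
Log2 fold change with SE (horizontal axes) from the edgeR fit for the 5 receptors that passed the count filter, FD over fed in each neuron type (left) and AGRP over POMC neurons in each condition (right). *Ghsr*, *Ntsr1* and *Nmur2* lie at 1.72, 4.06 and 4.10 for FD over fed AGRP neurons, and *Ntsr1* and *Nmur2* move toward 0 between the fed and the FD values of the right panel.

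Of the 6 receptors, 3 met the criteria for a call as higher in FD than in fed AGRP neurons and 0 as lower, beside 2.53% and 1.94% of all tested genes. Since this contrast led to the selection, nothing is read from the count. The median log2 fold change of the 5 tested members was 1.72, beside −0.02 for all genes. Groups did not overlap for 2 members, beside 7.65% of tested genes. With scaling by spike-in counts per cell only *Nmur2* kept its call, with a log2 fold change of 3.59, and *Ghsr* and *Ntsr1* stood at 1.39 and 2.54. With the 2 AGRP groups fitted alone *Ghsr* and *Nmur2* were called. In POMC neurons 0 members were called by edgeR in either direction, beside 0.127% of genes higher and 0.139% lower after FD. At an unadjusted p under 0.05 there were 2, *Ghsr* and *Nmur2*, beside 12.2% of genes, while limma-voom and DESeq2 also called 0. No member's POMC groups were free of overlap, beside 2.35% of genes.

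Between neuron types in fed mice, *Ghsr* was called higher in AGRP neurons, and *Ntsr1* and *Nmur2* were called lower, beside 1.7% and 2.31% of genes. Those 3 members did not overlap between the groups, beside 8.93% of genes. Levels in the 2 neuron types were among the values that led to the selection, so nothing is read from these counts in fed or in FD mice. In FD mice *Ghsr* alone was called, higher in AGRP neurons, beside 4.19% of genes higher and 3.96% lower. Limma-voom also called *Ntsr1*. The values of *Ghsr* and *Trhr* did not overlap, beside 11.4% of genes. The comparisons share libraries with each other. The change in AGRP less the change in POMC neurons was 3.50 ± 0.61 on the log2 scale for *Ghsr*, 3.84 ± 1.11 for *Ntsr1*, 5.48 ± 0.84 for *Nmur2*, −1.15 ± 2.61 for *Ntsr2* and −2.75 ± 1.73 for *Trhr*, given as descriptions. Single libraries moved several of these values. That of *Ntsr2* ran from −7.17 without POMC fed replicate 5 to 2.13 without POMC FD replicate 2, so it has no direction. That of *Ntsr1* was 5.80 without AGRP fed replicate 5 and 3.21 without AGRP FD replicate 4, that of *Nmur2* was 4.87 without AGRP FD replicate 2, and that of *Trhr* ran from −3.69 without AGRP FD replicate 4 to −1.40 without POMC FD replicate 1.

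**Figure D3:**
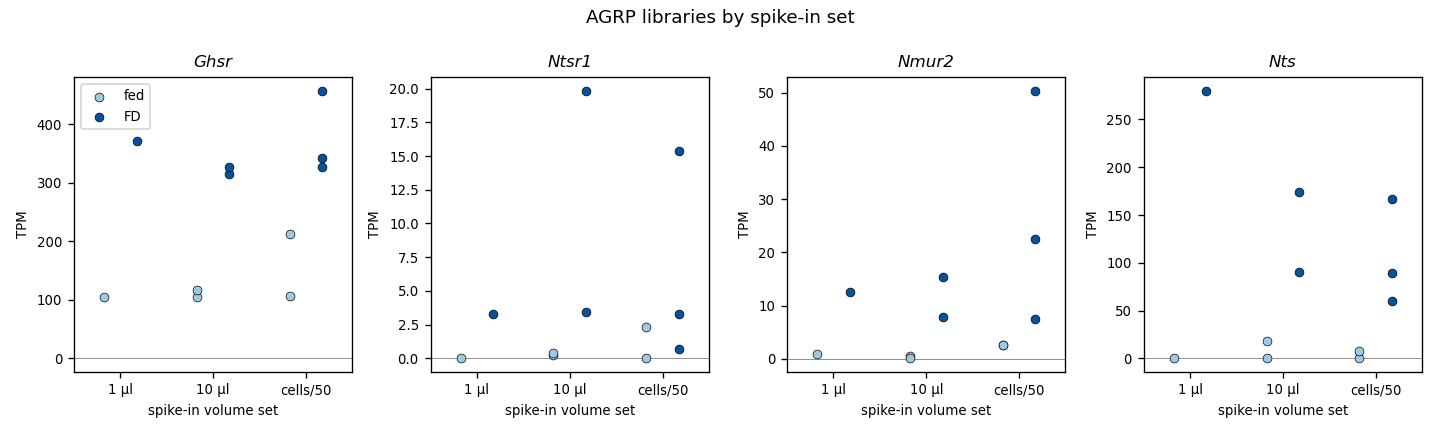
TPM (vertical axes) of *Ghsr*, *Ntsr1*, *Nmur2* and the neurotensin gene *Nts* in the AGRP libraries, split by spike-in volume (horizontal axes), with fed libraries in light and FD libraries in dark blue. FD points lie above fed points in every set except for *Ntsr1* in the cell-number set, where 1 FD library at 0.692 TPM is below a fed library at 2.33 TPM. The 1 µl set holds 1 fed and 1 FD library.

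The ligand genes were listed with the peptidases that cut the peptides, and 7 of these 11 genes passed the count filter. *Nts*, the neurotensin precursor, was the only gene of the list that passed the test, and it rose in FD AGRP neurons. Fed AGRP libraries held 0.429, 18.5, 0.185, 0.288 and 8.08 TPM, and FD AGRP libraries ran from 60.5 to 280 TPM with a median of 129. All FD values exceeded all fed values, and so also within each spike-in set. The log2 fold change was 4.91 ± 1.19 (SE, edgeR q = 0.00626). It was 6.26 without AGRP fed replicate 2, the highest fed library, and 6.75 under limma-voom, and it passed in every refit without 1 library. POMC libraries held at most 3.53 TPM in fed mice, and in FD mice 4 of 5 were at or under 0.849 TPM while POMC FD replicate 5 held 23.1 TPM. The POMC change of 2.32 ± 1.19 did not pass (edgeR q = 0.443) and turned to −1.21 without that library. The *Nts* changes in AGRP and POMC neurons differed by 2.59 ± 1.59, which did not pass (edgeR q = 0.387). With 1 library left out the difference ran from 0.13 without POMC fed replicate 1 (q = 0.99986) to 6.12 without POMC FD replicate 5 (q = 0.0153), so it rests on single POMC libraries.

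*Ghrl*, the ghrelin precursor, stood at 4.70 ± 2.39 TPM (SD, n = 5) in fed and 3.84 ± 3.29 TPM (n = 6) in FD AGRP neurons. In POMC neurons the 5 fed libraries held 0.281 to 5.93 TPM and the 5 FD libraries 7.34 to 22.1 TPM. These POMC values did not overlap, but they rest on 1 to 48 counts, and the log2 fold change of 2.21 ± 1.23 did not pass (edgeR q = 0.492). *Nmu*, the neuromedin U precursor, had 0 counts in 20 of 21 libraries and 13 counts in POMC FD replicate 1. *Nms*, the neuromedin S precursor, was listed at 0 in all 11 AGRP libraries and reached 2.41 TPM in fed and 18.3 TPM in FD POMC neurons. Neither passed the filter. *Trh* was highest in fed POMC neurons, at 7.37 to 23.7 TPM, and the FD POMC libraries ranged from 0 to 27.7 TPM (log2 fold change −1.09 ± 1.57, edgeR q = 0.857). In AGRP neurons *Trh* was found in 1 of 5 fed and 2 of 6 FD libraries.

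**Figure D4:**
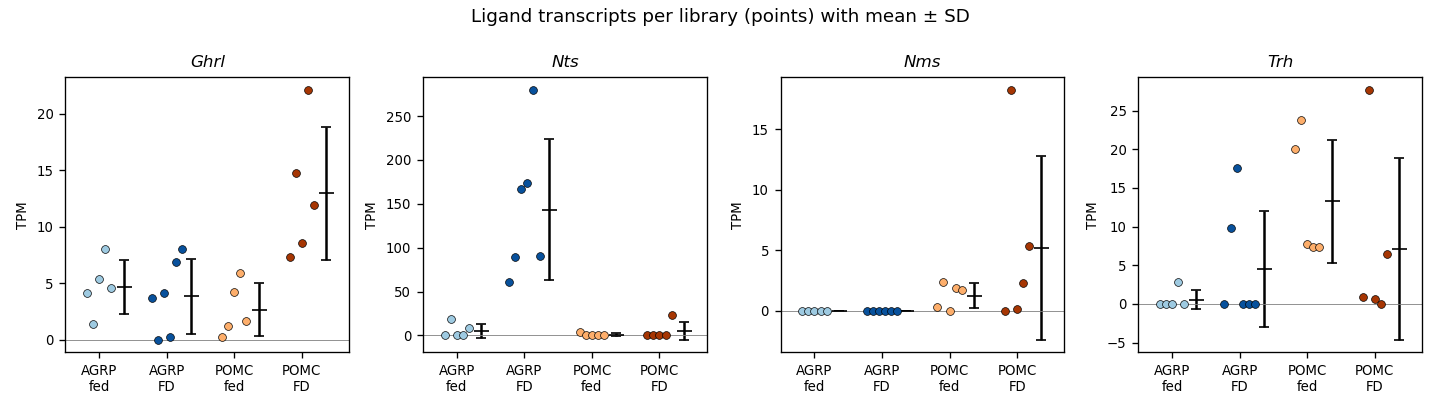
TPM (vertical axes, linear) of 4 ligand genes in every library (points) of the 4 groups, with the group mean and SD beside them. *Nts* is at 60.5 TPM or more in every FD AGRP library, *Nms* is at 0 in all AGRP libraries, and *Ghrl* in FD POMC libraries (7.34 TPM or more) lies above the fed POMC libraries.

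Among 5 related receptors and accessory proteins 3 passed the filter. *Mrap2*, whose protein potentiates ghrelin receptor signalling, fell in FD AGRP neurons, from 58.3 ± 21.95 TPM (SD, n = 5) to 23.1 ± 10.4 TPM (n = 6), a log2 fold change of −1.11 ± 0.27 (edgeR q = 0.00763). Its groups overlapped. Without AGRP fed replicate 4, without AGRP FD replicate 2 or with cell number as a covariate the log2 fold change came just under the size needed for a call, at −0.99, −0.997 and −0.98, with q of at most 0.0314. It was the only call in this list. *Sort1* and *Sorl1*, sorting receptors that bind neurotensin, had log2 fold changes of 0.15 ± 0.20 and 0.28 ± 0.19 in the same comparison and did not pass. *Gpr39*, a close relative of *Ghsr*, did not exceed 0.314 TPM, and *Trhr2* had 0 counts in every library.

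Of 16 genes for Gq transduction 15 were tested, and 1 rose and 1 fell in FD AGRP neurons. *Prkca*, protein kinase C alpha, rose from 66.3 ± 8.64 TPM (SD, n = 5) to 115 ± 13.8 TPM (n = 6), with a log2 fold change of 1.04 ± 0.19 (edgeR q = 0.000289) and no overlap. It came just under the log2 size needed for a call, at 0.99, with the replicate number as a block (q = 0.000963) and without AGRP fed replicate 3 (q = 0.00180). *Plcb1*, a phospholipase C, fell by 1.34 ± 0.42 on the log2 scale (edgeR q = 0.0390), from 5.85 ± 3.82 TPM (n = 5) to 1.93 ± 1.14 TPM (n = 6). It met the criterion of 20 CPM through its level in POMC neurons alone. The *Plcb1* call was lost without any of 5 single libraries (AGRP fed 2 and 4, AGRP FD 1, 2 and 3), with q up to 0.200, under limma-voom (q = 0.215), with cell number as a covariate (q = 0.0556) and with the 2 AGRP groups fitted alone (q = 0.148). The main Gq subunit genes *Gnaq* and *Gna11* did not pass, with log2 fold changes of −0.02 ± 0.15 and 0.26 ± 0.19. The median of the list was −0.34.

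All 8 genes for receptor desensitisation were tested, and 2 rose in FD AGRP neurons. *Rgs4*, which speeds the shut-off of Gq and Gi subunits, went from 329 ± 120 TPM (SD, n = 5) to 867 ± 178 TPM (n = 6), with a log2 fold change of 1.66 ± 0.22 (edgeR q = 5.71e-06). *Arrb1*, beta-arrestin 1, went from 27.5 ± 7.18 TPM (n = 5) to 58.9 ± 16.8 TPM (n = 6), with a log2 fold change of 1.35 ± 0.20 (edgeR q = 3.91e-05). FD and fed values of both genes were free of overlap. Both changes differed from those in POMC neurons, by 2.096 ± 0.31 for *Rgs4* (edgeR interaction q = 6.69e-05) and 1.50 ± 0.29 for *Arrb1* (q = 0.00119). Over the alternative settings with all libraries the interaction q reached 0.428 and 0.340, respectively. The other 6 genes, among them *Arrb2*, *Rgs2* and the receptor kinases, did not pass.

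In the list of 11 genes of ghrelin action in AGRP neurons, which includes *Agrp* and *Npy*, 2 rose with FD in AGRP neurons. *Agrp* had a log2 fold change of 2.08 ± 0.39 (edgeR q = 0.000531) and *Foxo1*, a transcription factor of the insulin pathway, 1.16 ± 0.27 (edgeR q = 0.00511). *Npy* missed the threshold, at 1.74 ± 0.59 (edgeR q = 0.0558), without overlap between the groups. It was called under limma-voom, without a count filter, with the spike-in set as a block, with the 2 AGRP groups fitted alone and without AGRP FD replicate 1. Genes for the AMPK branch, *Camkk2*, *Prkaa1* and *Prkaa2*, and for fatty acid transport into mitochondria, *Cpt1a* and *Cpt1c*, did not pass. Nor did *Ucp2*, *Creb1* or *Bsx*.

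Over all lists, 6 of 44 tested genes rose and 2 fell in FD AGRP neurons, beside 2.53% and 1.94% of all tested genes, with a median log2 fold change of 0.17 beside −0.02 for all genes. The lists were made with earlier results of these libraries known, so nothing is read from that count. With scaling by spike-in counts per cell *Nts* was the only one of these 8 called. In POMC neurons 0 of 44 were called by edgeR, with 10 at an unadjusted p under 0.05 (beside 12.2% of all genes), 0 by limma-voom and 1, *Bsx*, by DESeq2. *Bsx*, a homeobox gene that drives *Agrp* and *Npy*, was chosen after its values were seen. It held 0.169 to 4.56 TPM in fed and 0.380 to 40.3 TPM in FD POMC libraries, with a log2 fold change of 3.09 ± 0.73 (edgeR q = 0.0504), and its change in AGRP less that in POMC neurons was −3.20 ± 0.94 (q = 0.0354). Leaving out any of 9 single libraries took that interaction past the threshold, to q of at most 0.08999. Over the alternative settings with all libraries the interaction q reached 0.508. Replicates 1 and 2 of the FD POMC libraries held the most *Bsx*, at 32.8 and 40.3 TPM. They held 16.8 and 21 TPM of *Agrp* and 25.8 and 42.6 TPM of *Npy*. The FD POMC libraries ranged from 16.8 to 69.3 TPM for *Agrp* and from 20.2 to 157 TPM for *Npy*. The part of these transcripts in the *Bsx* values was not tested.

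**Figure D5:**
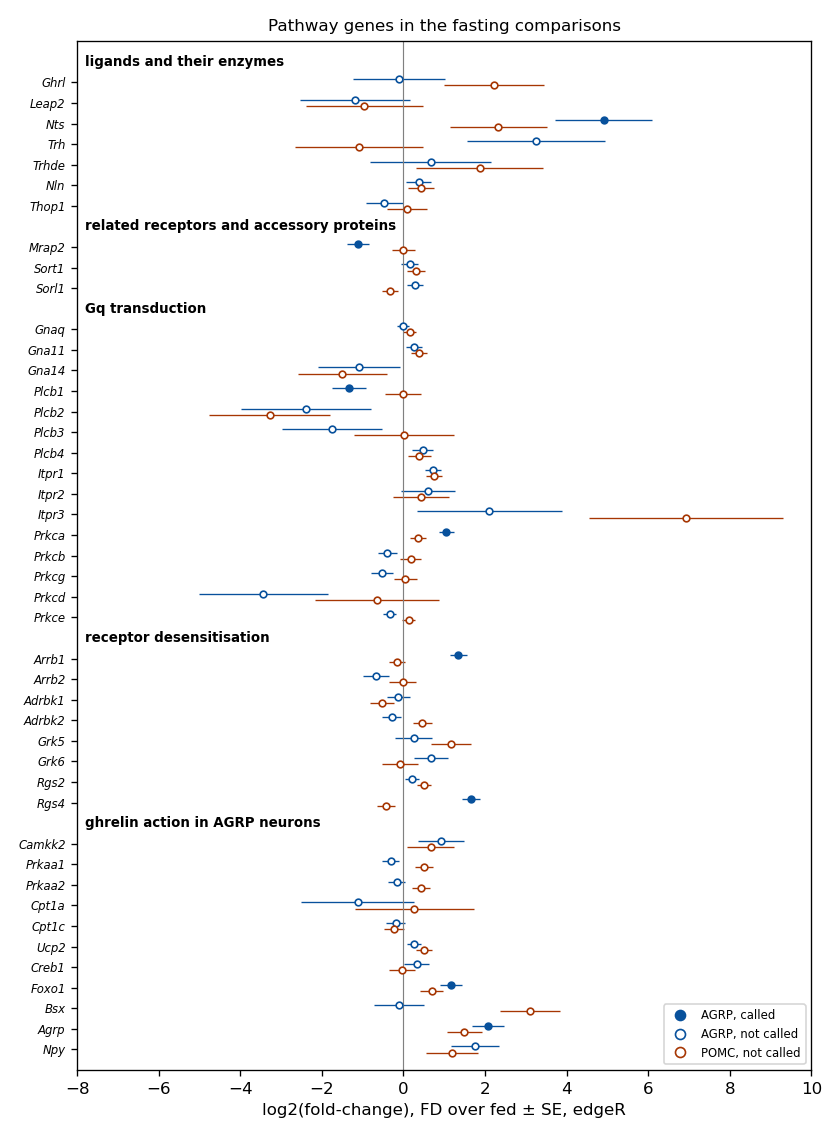
Log2 fold change of FD over fed with SE (horizontal axis) for the 44 tested pathway genes in AGRP (blue) and POMC neurons (brown), grouped by list, with filled symbols for called genes. The 8 called genes are all in AGRP neurons and range from −1.34 for *Plcb1* to 4.91 for *Nts*.

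Between AGRP and POMC neurons of fed mice, 8 of the 44 genes were higher and 2 lower in AGRP neurons, beside 1.7% and 2.31% of all tested genes, with a median of 0.20 beside −0.01 for all genes. The higher genes were *Plcb4*, *Prkca*, *Rgs2*, *Ucp2*, *Foxo1*, *Bsx*, *Agrp* and *Npy*. The *Npy* promoter drives the reporter by which AGRP cells were picked, and *Agrp* is a marker of these cells. The lists were also made with earlier results known, so nothing is read from this count. *Rgs2*, an RGS protein that acts on Gq, stood at 836 ± 34.3 TPM (SD, n = 5) in fed AGRP and 109 ± 23.5 TPM (n = 5) in fed POMC neurons, a log2 fold change of 2.76 ± 0.19 (edgeR q = 6.26e-12). *Plcb4*, at 94.4 ± 28.3 TPM (n = 5) against 35.5 ± 21.2 TPM (n = 5), differed by 1.28 ± 0.28 (edgeR q = 0.00246). *Plcb1* was lower in AGRP neurons by 1.96 ± 0.45 (edgeR q = 0.00407) and *Arrb1* by 1.04 ± 0.21 (edgeR q = 0.000972). *Arrb1* was not called here with the spike-in set as a block, with cell number as a covariate, with spike-in scaling, or without AGRP fed replicate 2 or POMC fed replicate 1. With spike-in scaling the calls of *Plcb1*, *Plcb4*, *Prkca* and *Ucp2* were lost as well. For *Arrb1* the FD AGRP mean of 58.9 TPM lay above the POMC means of 49.3 TPM in fed and 48.1 TPM in FD mice.

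The genes whose pattern was most like that of each receptor were taken by Pearson correlation of log2(normalized CPM + 1) over the 21 libraries, among 8197 other genes with a group mean over 20 CPM. The coefficients mostly reflect the 4 group means, which all these libraries share. For *Ghsr* they were *Acvr1c* (r = 0.979), *Arhgef28* (0.971), *Pcdh20* (0.970), *Flrt3* (0.968) and *Ghr* (0.967). *Acvr1c* encodes an activin receptor-like kinase and *Ghr* the growth hormone receptor, and their mean TPM in fed AGRP, FD AGRP, fed POMC and FD POMC neurons were 177, 387, 8.79 and 6.73 for *Acvr1c* and 426, 863, 74.6 and 76.4 for *Ghr*. For *Ntsr1* they were *Tmem28* (r = 0.931), *Prlr* (0.921), *Napb* (0.917), *Pdyn* (0.899) and *Alcam* (0.894). *Pdyn*, the dynorphin precursor, averaged 13.3, 90.5, 252 and 344 TPM in the same order of groups, and *Prlr*, the prolactin receptor, 5.16, 20.5, 92.8 and 106 TPM. For *Nmur2* they were *Rgs20* (r = 0.905), *Gfra1* (0.872), *Ostf1* (0.871), *Nptx2* (0.871) and *Ipo5* (0.848). With each library's deviation from its group mean in place of its level, 0 of the 5 genes recurred for *Ghsr*, 0 for *Ntsr1* and 1, *Nptx2*, for *Nmur2*.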

How the data were processed

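RNA from hand-sorted arcuate neurons was amplified with the NuGEN Ovation V2 kit, without molecular identifiers, after ERCC spike-in RNA was added. According to the labels and the study's methods, the authors demultiplexed with CASAVA, trimmed with cutadapt 1.7.1, removed abundant sequences with Bowtie2 2.1.0, mapped to mm10 with STAR 2.4.0i and counted reads on 35266 GENCODE genes with HTSeq 0.6.1p1 without strand. The deposited counts are not normalized. The deposited TPM were made by the authors from these counts and summed exon lengths. The 92 spike-in and 5 summary entries were kept out of library sizes, and reads on no gene made up 24.2% to 52.1% of the total.

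Here counts were tested with edgeR 4.0.16 (R 4.3.3) by TMM scaling and the two-sided quasi-likelihood test, in place of the limma-voom test of the study's methods, which was run with limma 3.58.1 as an alternative beside DESeq2 1.42.0. Genes over 1 CPM in at least 3 libraries were kept. Normalized CPM use the TMM-scaled library size. A library's floor of 3 counts is 0.0797 to 0.305 CPM. Intervals are 95%, from the fit. TPM were used for levels. The spread is that between single mice. The other alternatives were RLE normalization, spike-in scaling per sorted cell, no count filter, the compared groups alone, blocks for replicate number and spike-in set, cell number as a covariate, q alone as the criterion, and fits that each dropped a single library. The fit was tested on simulated data. The members, the lists and the tests were chosen with earlier results of these data known. Named genes are all 6 members, the 5 ligand genes, the called genes of each list (at most 4 in each direction and fasting comparison), the 5 genes most like each member over 20 CPM, and *Agrp*, *Npy* and *Pomc*. Genes in a list beyond these are given to describe it.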

Additional observations from a re-analysis of the deposited data

Results flagged for a closer look

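Single libraries stood apart from the others of their group in 9 of 24 sets of receptor values (6 receptors in 4 groups), as the highest value in each. The gap test used flags about 1 in 20 groups by chance if values are normally distributed. Several sets here are skewed or mostly zero, so that rate does not apply to them. The values here are normalized CPM. AGRP fed replicate 5 held 271 for *Ghsr*, with the next fed library at 145, and 2.62 for *Ntsr1*, with the next at 0.426. AGRP FD replicate 2 held 740 for *Ghsr* (next 553), 60.7 for *Nmur2* (next 24.7) and 0.115 for *Nmur1* (next 0.0304), the last on 2 counts. *Ntsr2* stood apart in AGRP fed replicate 4 at 4.12 (next 0.214), in POMC fed replicate 5 at 2.05 (next 0) and in POMC FD replicate 2 at 3.86 (next 0.217). *Nmur1* stood apart in AGRP fed replicate 2 at 2.15 (next 0.535).

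The change with FD differed between AGRP and POMC neurons for 3 of the pathway genes by the interaction of the edgeR fit. The difference was 2.096 on the log2 scale for *Rgs4* (q = 6.69e-05), 1.50 for *Arrb1* (q = 0.00119) and −3.20 for *Bsx* (q = 0.0354). In the alternative settings with all libraries q stayed under 0.05 in 7, 7 and 6 of them, respectively. It reached 0.428 for *Rgs4*, 0.340 for *Arrb1* and 0.508 for *Bsx*.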

How the results depend on the processing

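Of the 143 alternative values computed for the 7 counts of called members and pathway genes, 127 stayed within 1.5 times the reported count. Scaling by spike-in counts per cell lowered the called members in FD against fed AGRP neurons from 3 to 1, and the called pathway genes from 8 to 1, and in AGRP against POMC neurons of fed mice from 10 to 5. It shifted the median of all genes by −1.09 on the log2 scale, to −1.11, for FD against fed POMC neurons. This turned *Ntsr1* there to −0.95, or 0.16 relative to that median. Spike-in counts were 8.90% to 22.6% of gene counts at 10 µl and 0.274% to 1.46% at 1 µl. They were 0.297% in AGRP fed replicate 5, which had 4.28 µl, 214 sorted cells and a different spike-in mix from most libraries. These shares also vary with cell number and mix. Whether spike-in counts followed the volume by which this scaling divides was not tested. The 10 µl POMC libraries were all FD, so the shift and the spike-in set cannot be told apart. Called members in POMC neurons went from 0 to 1, *Ghsr*, without a count filter and ranged from 0 to 1 with single libraries left out. Called pathway genes in POMC neurons went from 0 to 1 with DESeq2 and with RLE normalization and to 2 (*Agrp* and *Bsx*) without a count filter, and ranged from 0 to 1 with libraries left out. These POMC calls of *Ghsr*, *Agrp* and *Bsx* met the criterion of 20 CPM through AGRP neurons alone. In fed and FD POMC neurons *Ghsr* averaged 2.65 and 0.870 CPM and *Agrp* 3.96 and 11.2 CPM. Called members between neuron types in FD mice went from 1 to 2 with limma-voom and with q alone. Without 1 library the POMC changes turned to −2.25 for *Ntsr2* (range −2.25 to 7.05) and to −1.21 for *Nts* (range −1.21 to 4.78), where POMC FD replicates 2 and 5, respectively, were left out. The cause was not tested.

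With the replicate number as a block, 3, 0, 3 and 1 members were called in the 4 comparisons, as without it, and 7 pathway genes in place of 8 in FD against fed AGRP neurons, where *Prkca* was not called. The numbers did not pair the samples, since deviations from the group means correlated at −0.157 to −0.000344 over the 5 AGRP pairs and at −0.106 to 0.0558 over the 5 POMC pairs, and 0 and 1 of the 5 correlated best with their own number. Depth limits *Ntsr2*, *Nmur1* and *Trhr* in AGRP neurons, where most libraries are near the floor of 3 counts.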
